A study of Mus musculus with 6 samples.

Results

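Single-cell transcriptomes of dorsal skin from mice given imiquimod together with SHP099 were compared with those of untreated skin. The comparison asks what differed from untreated skin when the inhibitor had been given. It rests on 4 libraries, 2 of IMQ+SHP099 mice and 2 of untreated (Sham) mice, out of 6 in the series. After the filters on barcodes 50850 cells were kept in the series, and 25589 cells of the 4 libraries could be placed in a cell class by gate genes. These gated cells numbered 7291 and 6318 in Sham and 7446 and 4534 in IMQ+SHP099, in the order of replicates 1 and 2, which holds for every pair of values below.

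All mice were female, of the C57BL/6J strain and 8 to 10 weeks old. Sham mice received nothing. The IMQ group had 5% imiquimod cream, 62.5 mg a day for 4 days, applied to the shaved back. IMQ+SHP099 mice received the same cream and, by gavage, SHP099 at 10 mg/kg each day for 4 days. No library came from mice given SHP099 alone. In these data the inhibitor's effect on untreated skin therefore cannot be told apart from its effect on inflamed skin. Outside these libraries, the study gave SHP099 alone to normal mice and reports no change in their skin or in its cytokine RNA. The labels do not state whether the doses of SHP099 ran beside the cream or after it. By the study's account each library pooled the skin of at least 2 mice, with fewer mice a pool in Sham than in the treated groups. The p-values below therefore measure the spread between 2 pools a group, and the mice of a pool cannot be told apart.

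Imiquimod is a ligand of Toll-like receptor 7, and on mouse skin the cream sets off an inflammation with features of psoriasis, in which dendritic cells and keratinocytes release IL-23, dermal gamma-delta T cells release IL-17 and IL-22, and keratinocytes answer with proliferation, incomplete cornification and the release of antimicrobial proteins and neutrophil chemokines. SHP2, the product of Ptpn11, is a phosphatase that relays signals from growth factor and cytokine receptors to the RAS and ERK pathway. SHP099 holds SHP2 in its closed and inactive form and therefore acts on the protein and not on its RNA. Calprotectin, the dimer of S100a8 and S100a9, and the stress keratins Krt6a, Krt6b and Krt16 are standard marks of such inflamed epidermis.

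UMIs (tags that each mark 1 captured RNA molecule) were summed per library within 6 classes set by gate genes, namely keratinocytes (Krt5, Krt14, Krt1 and Krt10), fibroblasts (Col1a1, Col1a2 and Col3a1), mural cells (Acta2 and Tagln), endothelial cells (Pecam1 and Cdh5), T cells (the CD3 genes) and myeloid cells (Lyz2 and Cd74). Levels are in CPM, the UMIs of a gene per 1000000 UMIs of its class after TMM scaling between libraries (raw CPM where that scaling was left out), and fold changes are IMQ+SHP099 over Sham. Since the unit is a sum over cells, fewer cells of a kind within a class and less RNA per cell cannot be told apart. A gene is called where its adjusted p in edgeR's quasi-likelihood test (Benjamini-Hochberg over all genes tested in the class) lay under 0.05, and "rose" and "fell" are used for called genes alone. Values of the IMQ libraries, which share the fit and, through the Sham libraries, the baseline, are given beside those of IMQ+SHP099.

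The 4 libraries held 51968673 to 170319612 UMIs in kept cells, and the median kept cell held 5645 to 18263.5 UMIs, both extremes being the 2 IMQ+SHP099 libraries. At most 30 barcodes were shared by any 2 libraries. For each of the 6 classes, all 8 of its markers outside the gate had UMIs in every library, and their summed level was higher in that class than in any other. Epidermal RNA in the other classes was uneven. The 8 keratinocyte markers summed to 8469 and 4081 raw CPM in the T cells of Sham replicate 1 and IMQ+SHP099 replicate 1, against 2168 and 196 in replicates 2. Replicate 1 was also the keratinocyte-rich library of both groups, and the part of such carried-over RNA in the results was not tested.

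The keratinocyte class held 5287 and 1229 cells in Sham and 5333 and 378 cells in IMQ+SHP099. Of 13947 genes tested in it, 2924 (21.0%) were called, 1442 higher (10.3%) and 1482 lower (10.6%), and 5054 had an unadjusted p under 0.05. Among the called genes, 536 rose and 547 fell by at least 4-fold. Without IMQ+SHP099 replicate 1, the deepest library, 1152 genes were called, and without any 1 of the other 3 libraries the count lay between 2430 and 2783. The 2 IMQ+SHP099 libraries held 146917655 and 9168183 keratinocyte UMIs, the 2 Sham libraries 71600971 and 21478224. Of the called genes, 256 that rose and 268 that fell had more RNA in another class (a level under 20% of that class). Such genes are pointed out below where they are named. For IMQ against Sham 2803 genes were called in this class. For IMQ+SHP099 against IMQ 0 genes were called by edgeR, while 463 had an unadjusted p under 0.05.

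The RNA of the inhibitor's target was not called in any class. Ptpn11 (ENSMUSG00000043733, GRCm38 chromosome 5, 121130533 to 121191397 on the minus strand) stood at 39.02 and 43.8 CPM in Sham keratinocytes and at 39.4 and 34.02 CPM in IMQ+SHP099 keratinocytes (log2 fold change -0.17 ± 0.22 SE, adjusted p = 0.616), with overlapping groups. In the other 5 classes its log2 fold change lay between -0.24 and 0.25, with adjusted p from 0.706 to 0.945.

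Among the genes that differed most were the calprotectin genes, which lie next to each other on chromosome 3. S100a8 (ENSMUSG00000056054, chromosome 3, 90668978 to 90670035 on the plus strand) rose from 1.87 and 0.325 CPM in Sham to 18431 and 26051 CPM in IMQ+SHP099 (log2 fold change 14.20 ± 1.05 SE, adjusted p = 0.000118). S100a9 (ENSMUSG00000056071, chromosome 3, 90692632 to 90695721 on the minus strand) rose from 2.07 and 0.325 CPM to 20623 and 21247 CPM (14.00 ± 1.07, adjusted p = 0.000119). Both IMQ+SHP099 libraries stood above both IMQ libraries, at 16831 and 13191 CPM for S100a8 and 18279 and 12619 CPM for S100a9, but the log2 differences of 0.57 and 0.44 were not called (adjusted p = 1 and 1). Neutrophils also carry these transcripts. Retnlg, a neutrophil gene, was at 0 raw CPM in the keratinocytes of IMQ+SHP099 replicate 1 and at 1.09 in replicate 2, against 0 and 919.5 in the myeloid class of the same libraries. S100a8 was at 15016 and 26307 raw CPM in these keratinocytes and at 987.4 and 8554 in the myeloid class, and the part of neutrophil RNA in the keratinocyte values was not tested.

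Other secreted defence proteins were raised as well. Lcn2 (ENSMUSG00000026822, chromosome 2, 32384633 to 32388252 on the minus strand), which encodes a protein that binds bacterial iron carriers, rose from 0.809 and 0.217 CPM to 515 and 331 CPM (9.54 ± 0.64, adjusted p = 9.45e-05), at 12.7% of its level in endothelial cells. Defb4, a beta-defensin, was at 0 UMIs in Sham and at 1225 UMIs over both IMQ+SHP099 libraries, which makes it at least 311-fold higher against a floor of 3 UMIs over the Sham group. Of 12 antimicrobial genes tested, 9 rose and 0 fell, with a median log2 fold change of 7.79 beside -0.04 over all genes and 6.88 for IMQ against Sham. Slpi, an inhibitor of neutrophil elastase, rose as well, from 2.75 and 1.88 CPM to 793 and 251 CPM (7.80 ± 0.65, adjusted p = 0.000181).

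Since these defence genes were called in the same direction, their RefSeq promoters (assembly GRCm38.p6, 250 bases before to 50 after the start site, printed 5′ to 3′ on the strand of the gene) were searched on both strands for the C/EBP motif TTGCNNAA, the AP-1 motif TGANTCA and an NF-kB motif (GGG, any 2 bases and TTTCC). No matches overlap in the promoters shown. A match is printed in capitals. The promoters of S100a9, Lcn2 and Saa3 each hold 1 C/EBP match, that of Sprr2b, the cornified envelope gene described next, holds 1 AP-1 match. That of Krt77, which fell, is shown beside them and holds 1 C/EBP match. Those of S100a8 and Il19 hold no match of the 3 motifs and are not printed.
S100a9, chr3:90695672-90695971, minus strand: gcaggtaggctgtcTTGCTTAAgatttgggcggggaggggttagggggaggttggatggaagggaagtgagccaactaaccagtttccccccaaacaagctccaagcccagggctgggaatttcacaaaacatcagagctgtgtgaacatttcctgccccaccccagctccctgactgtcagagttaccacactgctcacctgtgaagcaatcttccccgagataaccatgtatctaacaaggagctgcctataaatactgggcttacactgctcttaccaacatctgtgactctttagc
Lcn2, chr2:32387690-32387989, minus strand: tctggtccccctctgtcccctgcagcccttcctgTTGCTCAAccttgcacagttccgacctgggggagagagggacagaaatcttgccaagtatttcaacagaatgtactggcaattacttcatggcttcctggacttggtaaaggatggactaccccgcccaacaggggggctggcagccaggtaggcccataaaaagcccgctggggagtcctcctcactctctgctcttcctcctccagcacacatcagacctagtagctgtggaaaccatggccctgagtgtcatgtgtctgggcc
Saa3, chr7:46715627-46715926, minus strand: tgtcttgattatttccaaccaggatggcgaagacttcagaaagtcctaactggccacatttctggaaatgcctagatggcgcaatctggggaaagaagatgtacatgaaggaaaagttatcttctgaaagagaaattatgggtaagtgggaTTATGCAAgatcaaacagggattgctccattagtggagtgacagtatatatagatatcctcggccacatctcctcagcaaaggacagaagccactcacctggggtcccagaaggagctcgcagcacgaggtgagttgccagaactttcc
Sprr2b, chr3:92316455-92316754, plus strand: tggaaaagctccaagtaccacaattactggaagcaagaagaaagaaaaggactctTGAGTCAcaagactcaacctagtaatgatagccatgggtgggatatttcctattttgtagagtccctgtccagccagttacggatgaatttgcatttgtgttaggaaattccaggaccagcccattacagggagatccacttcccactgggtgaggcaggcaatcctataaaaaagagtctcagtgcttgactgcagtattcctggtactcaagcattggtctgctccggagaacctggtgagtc
Krt77, chr15:101869656-101869955, minus strand: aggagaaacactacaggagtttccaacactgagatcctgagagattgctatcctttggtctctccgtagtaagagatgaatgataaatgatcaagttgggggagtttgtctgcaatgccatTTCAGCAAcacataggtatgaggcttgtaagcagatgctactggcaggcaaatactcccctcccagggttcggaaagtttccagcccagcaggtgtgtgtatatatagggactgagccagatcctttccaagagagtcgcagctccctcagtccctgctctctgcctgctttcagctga
The first base of the match lies 236, 216, 99, 195 and 129 bases before the start site in the order printed. Of the 8 keratinocyte genes with the largest rises, 7 had a promoter in the table, and 4 of these hold a C/EBP match, 1 an AP-1 match and 0 an NF-kB match. Of the 8 with the largest falls, 7 had a promoter, with 2, 1 and 0 matches in the same order. Over all 32851 promoters of this length the shares are 10.8% for C/EBP, 7.81% for AP-1 and 1.63% for NF-kB. A match describes the letters of this window and no binding.

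**Figure D1:**
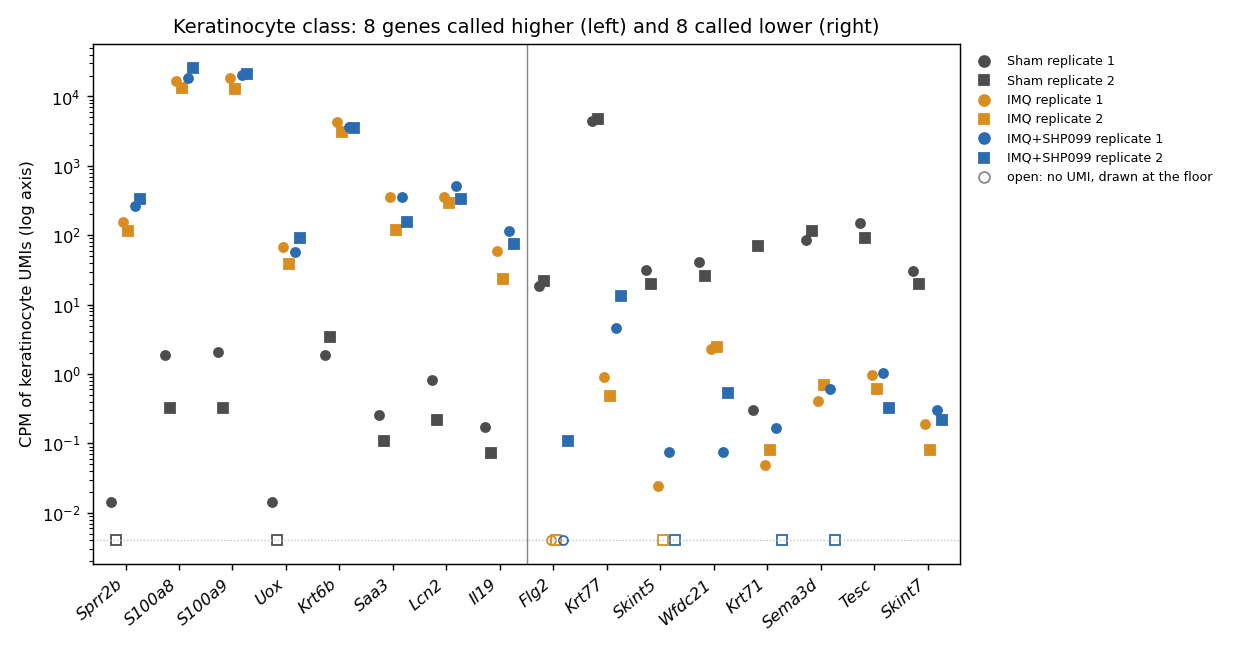
CPM of the 16 keratinocyte genes with the largest called differences, on a log axis, with 1 point per library (circles replicate 1, squares replicate 2; grey Sham, orange IMQ, blue IMQ+SHP099). Open symbols mark libraries without a UMI and are drawn at a fixed floor. All IMQ+SHP099 points lie above the Sham points for the 8 genes on the left and below them for the 8 on the right.

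The keratins of wounded and hyperproliferative epidermis rose in all 4 members tested, with a median log2 fold change of 5.47 beside 5.52 for IMQ against Sham. Krt6b (ENSMUSG00000023041, chromosome 15, 101676023 to 101680287 on the minus strand) rose from 1.89 and 3.47 CPM to 3586 and 3565 CPM (10.40 ± 0.61, adjusted p = 5.31e-05), with 4248 and 3121 CPM in IMQ. Krt6a rose from 52.6 and 30.2 CPM to 4747 and 4947 CPM (6.87 ± 0.51, adjusted p = 0.000118). Krt16, the usual partner of the Krt6 proteins in a filament, rose from 630.4 and 192 CPM to 7390 and 6392 CPM (4.07 ± 0.62, adjusted p = 0.00261). The IMQ+SHP099 libraries lay within or next to the range of the IMQ libraries in all of them. Krt6a and Krt6b are near-identical copies whose reads can be split between them, so their separate levels are uncertain. Krt17, at 619.5 and 502 CPM and 6533 and 4556 CPM (3.31 ± 0.42, adjusted p = 0.00108), completes the list.

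Keratins and cornification genes of resting epidermis fell, 9 of 13 tested, and 0 rose (median -3.67, IMQ against Sham -3.81). Krt77 (ENSMUSG00000067594, chromosome 15, 101858731 to 101869705 on the minus strand), a keratin of suprabasal interfollicular cells and sweat ducts, fell from 4469 and 4693 CPM to 4.66 and 13.4 CPM (-9.04 ± 0.70, adjusted p = 0.000119). It stood at 0.892 and 0.487 CPM in IMQ, so that the IMQ+SHP099 libraries lay above both IMQ libraries but far below Sham. That difference of 3.61 on the log2 scale between IMQ+SHP099 and IMQ was not called (adjusted p = 0.559). Flg2, which encodes a filaggrin relative of the granular layer, had 1924 UMIs in Sham and 1 UMI in IMQ+SHP099, a ratio of sums of 2527 (95% counting interval 453 to 99867, adjusted p = 0.000227). Krt2 fell from 8.81 and 4.37 CPM to 0.0501 and 0.108 CPM (-6.80 ± 0.73, adjusted p = 0.00051). Lor, which encodes loricrin, the bulk protein of the cornified envelope, is not among the largest falls of the list but fell too, from 157 and 105 CPM to 2.88 and 2.16 CPM (-5.64 ± 0.39, adjusted p = 9.66e-05), and so did Krt15, a keratin of basal and bulge cells, from 3634 and 1902 CPM to 102 and 46.4 CPM (-5.22 ± 0.73, adjusted p = 0.00181). The members that were not called were Krtdap, Dsc1, Dmkn and Calm4, whose log2 fold changes lay between -0.37 and 0.23. Of the gate genes, Krt10 fell from 7658 and 9128 CPM to 962 and 1843 CPM (-2.58 ± 0.50, adjusted p = 0.00809), while Krt14 (1.20 ± 0.48, adjusted p = 0.11) was not called, but cells entered the class by the sum of Krt5, Krt14, Krt1 and Krt10, so that values of these 4 genes are shaped by the gate.

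The small proline-rich and late cornified envelope proteins that keratinocytes make during repair rose in 17 of 19 genes tested, with 0 lower (median 6.14, or 6.05 with genes at or near 0 UMIs set to their ratio of sums or its bound, and 5.09 for IMQ against Sham). Sprr2b (ENSMUSG00000050092, chromosome 3, 92316620 to 92318085 on the plus strand) had 1 UMI in Sham and 34196 in IMQ+SHP099, a ratio of sums of 26035 (95% counting interval 4672 to 1028348, adjusted p = 2.04e-05). Its levels in IMQ+SHP099, 260.1 and 331 CPM, both exceeded those in IMQ, 153 and 117 CPM (log2 difference 1.13, adjusted p = 0.86). Lce3f had 1 UMI in Sham and 1347 in IMQ+SHP099 (ratio of sums 1026, interval 184 to 40536). Members of these families share sequence, so reads may be split between them. The stefin A genes, a family of cysteine protease inhibitors in 1 cluster, rose in 7 of 7 (median 5.46, or 4.86 at the bound). Stfa2 rose from 0.426 and 0.1805 CPM to 67.6 and 64.7 CPM (7.61 ± 0.43, adjusted p = 5.05e-05) and Stfa1 from 88.8 and 56.3 CPM to 5039 and 3304 CPM (5.84 ± 0.51, adjusted p = 0.000222). Of 8 clade B serpins 5 rose and 0 fell, among them Serpinb3a, whose human relatives are the squamous cell carcinoma antigens, from 2.14 and 0.253 CPM to 212 and 216 CPM (7.36 ± 0.78, adjusted p = 0.00048). Of 12 kallikrein proteases and regulators 5 rose and 1 fell. Klk13 rose from 1.65 and 2.49 CPM to 45.7 and 71.8 CPM (4.85 ± 0.38, adjusted p = 0.000127), and Klk5, which starts the shedding of corneocytes, fell from 82.8 and 62.1 CPM to 9.47 and 12.3 CPM (-2.75 ± 0.38, adjusted p = 0.00166).

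**Figure D2:**
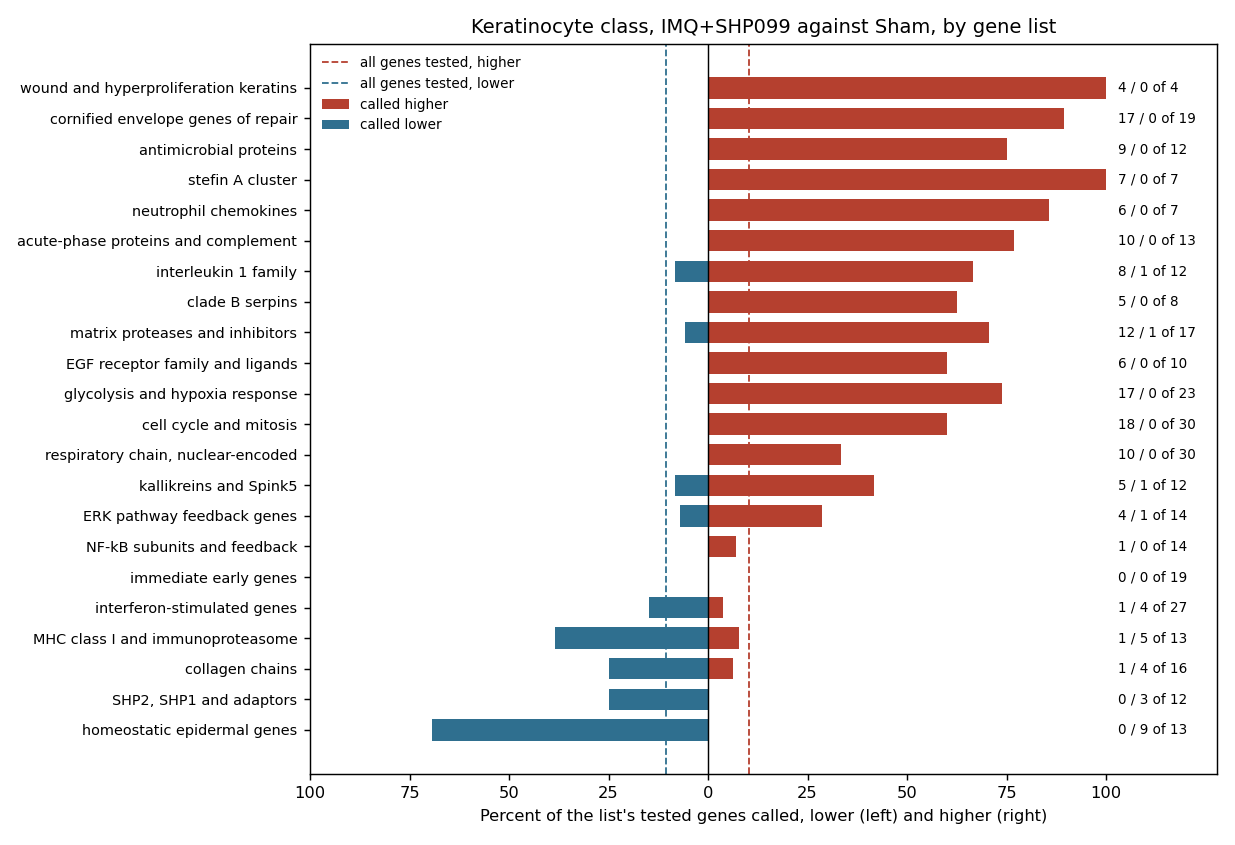
Share of each list's tested genes that were called lower (left, blue) or higher (right, red) in keratinocytes of IMQ+SHP099 against Sham, with the counts higher / lower of tested at the right. Dashed lines mark the shares over all 13947 genes, 10.6% lower and 10.3% higher. The 4 wound keratins and 7 stefins reach 100% on the right, and the homeostatic epidermal genes extend farthest to the left, with 9 of 13.

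Keratinocyte cytokines known from imiquimod-treated skin were among the called genes. Il23a (ENSMUSG00000025383, chromosome 10, 128296139 to 128298752 on the minus strand), the IL-23 subunit p19, rose from 1.12 and 1.01 CPM in Sham to 11.8 and 12.5 CPM in IMQ+SHP099 (3.50 ± 0.26, adjusted p = 0.000119). The 2 IMQ libraries stood at 24.5 and 26.6 CPM, above both IMQ+SHP099 libraries. This log2 difference of -1.07 between IMQ+SHP099 and IMQ had an unadjusted p of 0.0013 and an adjusted p of 0.741, and was not called. Il19, an IL-10 family cytokine of activated keratinocytes, rose from 0.1703 and 0.0722 CPM to 114 and 73.99 CPM (9.39 ± 0.65, adjusted p = 9.79e-05), with 58.5 and 23.7 CPM in IMQ. Of 12 genes of the IL-1 family 8 rose and 1 fell. Il1f6, which encodes IL-36 alpha, rose from 2.54 and 0.1805 CPM to 21.5 and 42.3 CPM (4.40 ± 0.79, adjusted p = 0.00595), and Il1f9, which encodes IL-36 gamma, rose from 9.92 and 7.04 CPM to 101 and 209 CPM (4.18 ± 0.41, adjusted p = 0.000336). The gene that fell was Il1r2, the decoy receptor of IL-1, from 262 and 111 CPM to 8.48 and 11.1 CPM (-4.27 ± 0.45, adjusted p = 0.000451). The antagonist Il1rn, chosen after its values were seen, also rose, from 62.4 and 77.9 CPM to 178 and 296 CPM (1.76 ± 0.34, adjusted p = 0.00761).

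Genes for chemokines and factors that draw neutrophils rose in 6 of 7 tested, with a median of 5.68 beside 4.93 for IMQ against Sham. Cxcl3 rose from 0.184 and 0 CPM to 71.2 and 61.9 CPM (9.03 ± 0.99, adjusted p = 0.000536), with 34.2 and 6.78 CPM in IMQ. Csf3, which encodes the growth factor G-CSF, rose from 0.199 and 0 CPM to 16.5 and 17.2 CPM (6.97 ± 1.01, adjusted p = 0.00215) at 18.8% of the endothelial level. Cxcl5 had 1 UMI in Sham and 323 in IMQ+SHP099 and stood at 3.56% of its level in fibroblasts. Of 15 chemokines for monocytes and T cells 4 rose and 1 fell, beside 10.3% higher and 10.6% lower over all genes. Ccl20, the ligand of Ccr6 on type 17 cells, rose from 6.47 and 24.1 CPM to 467 and 122 CPM (4.28 ± 0.77, adjusted p = 0.00575), whereas Ccl27a, a skin-homing chemokine of resting keratinocytes, fell from 818 and 354 CPM to 39.3 and 88.1 CPM (-3.21 ± 0.52, adjusted p = 0.00352). Cxcl14, likewise made by resting epidermis, fell from 662 and 258 CPM to 84.1 and 63.2 CPM (-2.64 ± 0.51, adjusted p = 0.00815). These 3 calls were lost without IMQ+SHP099 replicate 1 (adjusted p = 0.0569, 0.052 and 0.0833), and that of Cxcl14 also without IMQ+SHP099 replicate 2 (adjusted p = 0.0724).

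Acute-phase and complement genes were called higher in 10 of 13 and lower in 0, but all 10 had more RNA in another class. Saa3 (ENSMUSG00000040026, chromosome 7, 46711998 to 46715700 on the minus strand), a serum amyloid A, rose from 0.255 and 0.108 CPM to 359 and 156 CPM (10.29 ± 0.85, adjusted p = 0.000179), at 1.65% of its level in fibroblasts. The same holds for 8 of the 13 matrix proteases and inhibitors called (12 higher, 1 lower, of 17). Timp1 rose from 0.979 and 0.939 CPM to 41.7 and 29.7 CPM (5.22 ± 0.36, adjusted p = 9.66e-05) at 2.24% of the fibroblast level. Mmp13, highest in keratinocytes, rose from 0.667 and 0.0722 CPM to 21.9 and 15.8 CPM (5.45 ± 0.86, adjusted p = 0.00327), and was not called without IMQ+SHP099 replicate 1 (adjusted p = 0.0502). The summed level of the 8 fibroblast markers in keratinocytes was 87.9 and 250.3 raw CPM in Sham and 245 and 338 in IMQ+SHP099, and the part of carried-over stromal RNA in these calls was not tested.

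Genes upstream and downstream of SHP2 gave a mixed picture. The counts below stand beside 10.3% of all keratinocyte genes called higher and 10.6% called lower. Among the EGF receptor family and its ligands 6 of 10 rose and 0 fell. Areg, which encodes amphiregulin, rose from 41.4 and 31.1 CPM to 1368 and 679 CPM (4.82 ± 0.50, adjusted p = 0.000411), with 687 and 409 CPM in IMQ. Ereg, which encodes epiregulin, rose from 16.6 and 4.55 CPM to 86.4 and 237 CPM (3.91 ± 0.69, adjusted p = 0.00551). Of 14 feedback and target genes of the ERK pathway 4 rose and 1 fell (median 0.31, IMQ against Sham 0.07). Phlda1 rose from 143 and 52.96 CPM to 1018 and 782 CPM (3.20 ± 0.51, adjusted p = 0.00341). Dusp6, the phosphatase that inactivates ERK and a common readout of its activity, rose from 34.7 and 26.5 CPM to 60.8 and 64.6 CPM (1.03 ± 0.24, adjusted p = 0.0168), and stood at 44.5 and 41.4 CPM in IMQ. Every treated library exceeded the Sham libraries, and the IMQ+SHP099 values were the highest. Dusp6 was not called without IMQ+SHP099 replicate 1 or without Sham replicate 2 (adjusted p = 0.0531 and 0.0678). Spry4 (1.06 ± 0.67, adjusted p = 0.285) was not called, and Spred2, an inhibitor of the pathway, fell from 24.6 and 40.4 CPM to 10.6 and 13.5 CPM (-1.44 ± 0.30, adjusted p = 0.0113). Of 12 genes for SHP2, SHP1 and their adaptors 0 rose and 3 fell, namely Gab1 (-1.02 ± 0.27, adjusted p = 0.0292), Ptpn6 (-1.14 ± 0.27, adjusted p = 0.0175) and Irs1 (-2.62 ± 0.49, adjusted p = 0.00688). Ptpn6 and Irs1 had more RNA in another class. Leaving out 1 library ended the call of Gab1 in 3 of 4 cases (adjusted p = 0.0569 to 0.116, IMQ+SHP099 replicate 2 being the exception), that of Ptpn6 without IMQ+SHP099 replicate 2 (adjusted p = 0.0517) and that of Irs1 without IMQ+SHP099 replicate 1 (adjusted p = 0.0939). Of 19 immediate early genes 0 were called by edgeR, and of 14 NF-kB subunits and feedback genes only Bcl3 was, rising from 18.8 and 25.6 CPM to 42.4 and 52.5 CPM (1.09 ± 0.25, adjusted p = 0.0165), a call that was lost without Sham replicate 1 (adjusted p = 0.071).

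The called genes of the cell cycle and of energy metabolism were all higher. All 30 cell cycle genes tested had a positive log2 fold change, and 18 of them were called higher (median 1.15, IMQ against Sham 0.86). Rrm2, a subunit of ribonucleotide reductase, rose from 9.46 and 17.9 CPM to 87.5 and 57.2 CPM (2.41 ± 0.36, adjusted p = 0.00248). Birc5, which encodes survivin, rose from 28.04 and 31.4 CPM to 162 and 80.1 CPM (2.03 ± 0.34, adjusted p = 0.00456). IMQ+SHP099 replicate 1 stood above replicate 2 in both. Of 23 genes of glycolysis and the hypoxia response 17 rose and 0 fell (median 1.61, IMQ against Sham 1.11). Slc16a3, a lactate exporter, rose from 5.55 and 12.3 CPM to 92.9 and 39.6 CPM (2.91 ± 0.50, adjusted p = 0.00466), and Hk2, the hexokinase of the first step, from 28.6 and 38.5 CPM to 167 and 172 CPM (2.34 ± 0.29, adjusted p = 0.000893). Of 30 nuclear genes of the respiratory chain 10 rose and 0 fell (median 0.99). Ndufa4 rose from 502 and 270.3 CPM to 1876 and 1381 CPM (2.08 ± 0.41, adjusted p = 0.00876). Slc16a3 and Ndufa4 were not called without IMQ+SHP099 replicate 1 (adjusted p = 0.054 and 0.0681).

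Genes of antigen presentation and of the interferon response gave calls in both directions. Of 13 genes of MHC class I and the immunoproteasome 5 fell and 1 rose (median -0.91, IMQ against Sham -1.09). Nlrc5, the transactivator of MHC class I, fell from 36 and 34.9 CPM to 7.68 and 7.34 CPM (-2.24 ± 0.24, adjusted p = 0.000454), and Tap1, a peptide transporter, from 92.6 and 79.3 CPM to 42.9 and 24.6 CPM (-1.34 ± 0.30, adjusted p = 0.0147). Psmb10, an immunoproteasome subunit, rose from 23.6 and 16.1 CPM to 67.2 and 47.7 CPM (1.53 ± 0.28, adjusted p = 0.00638). Of 27 interferon-stimulated genes 4 fell and 1 rose (median -0.13, IMQ against Sham -0.55), beside 10.6% lower and 10.3% higher over all genes. The largest fall was that of Usp18, which turns off the type I interferon receptor, from 6.75 and 7.26 CPM to 0.66 and 0.432 CPM (-3.56 ± 0.40, adjusted p = 0.000592). The gene that rose, Rsad2 (1.74 ± 0.52, adjusted p = 0.0438), stood at 1.66% of its endothelial level and lost its call without either Sham library and without IMQ+SHP099 replicate 1 (adjusted p = 0.106 to 0.387). Psmb10 lost its call without IMQ+SHP099 replicate 1 (log2 fold change 1.26).

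Several of the largest differences concerned genes outside these lists. Skint5 and Skint7, members of a family that is expressed in mouse epidermis and whose relative Skint1 is needed for epidermal gamma-delta T cells, fell from 31.4 and 20.04 CPM to 0.0752 and 0 CPM (-8.52 ± 0.56, adjusted p = 9.38e-05) and from 30.1 and 19.6 CPM to 0.301 and 0.216 CPM (-6.43 ± 0.44, adjusted p = 9.66e-05). Sema3d, a secreted guidance factor, fell from 86.6 and 116 CPM to 0.618 and 0 CPM (-7.66 ± 0.59, adjusted p = 0.000119). Tesc fell from 148 and 90.6 CPM to 1.03 and 0.324 CPM (-7.13 ± 0.49, adjusted p = 9.66e-05). Wfdc21 fell from 40.97 and 25.9 CPM to 0.0752 and 0.54 CPM (-7.97 ± 0.68, adjusted p = 0.000199). Its IMQ libraries, 2.31 and 2.44 CPM, lay between Sham and IMQ+SHP099. Krt71, a keratin of the inner root sheath, fell from 0.298 and 68.9 CPM to 0.167 and 0 CPM (-7.86 ± 2.10, adjusted p = 0.0296), so that its difference was carried by Sham replicate 2. Its level was 12.4% of that in mural cells, and it was called neither without Sham replicate 2 nor without either IMQ+SHP099 library (adjusted p = 0.142 to 0.435). Uox, the gene of urate oxidase, had 1 UMI in Sham and 7750 in IMQ+SHP099 (ratio of sums 5900, interval 1059 to 233082, adjusted p = 5.05e-05).

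Further keratinocyte lists gave few calls or calls in both directions. Over all genes tested in the class 10.3% rose and 10.6% fell, so that counts near these shares are no result about a list. Of 14 genes of the hair follicle and the sebaceous gland 4 rose and 2 fell, of 16 desmosome and adhesion genes 2 rose and 2 fell, and of 15 enzymes of barrier lipids 1 rose and 2 fell. Dsc2, a desmocollin, rose from 2.14 and 2.02 CPM to 12.8 and 26.5 CPM (3.21 ± 0.47, adjusted p = 0.00218), whereas Dsg1a, the desmoglein of the upper layers, fell from 537 and 601 CPM to 79.5 and 116 CPM (-2.55 ± 0.32, adjusted p = 0.00103). Alox12, a lipoxygenase, fell from 14.2 and 12.8 CPM to 3.38 and 3.67 CPM (-1.94 ± 0.36, adjusted p = 0.00638). Col17a1, which anchors basal cells to the basement membrane, fell from 1233 and 888 CPM to 392 and 230.5 CPM (-1.77 ± 0.37, adjusted p = 0.0117), 1 of 4 collagen chains of 16 that fell, with 1 that rose. Alox12 was not called without IMQ+SHP099 replicate 1 (adjusted p = 0.078) and Col17a1 not without IMQ+SHP099 replicate 2 (adjusted p = 0.0594). Of 11 genes of Toll-like receptors and their signalling 1 was called, Cd14, which had more RNA in another class and which was not called without either IMQ+SHP099 library or without Sham replicate 1 (adjusted p = 0.0566 to 0.169), and of 12 genes of the IL-6 family, STAT3 and SOCS 2 rose and 2 fell. Lif, a cytokine of that family, rose from 0.454 and 0.614 CPM to 13.1 and 7.78 CPM (4.34 ± 0.48, adjusted p = 0.000561). Of 40 tested genes from an inflammation list of the study, which does not say how its members were chosen, 10 rose and 3 fell. Of these 13 called genes 5 had more RNA in another class.

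Fibroblasts, with 975 and 3011 cells in Sham and 1245 and 2438 in IMQ+SHP099, gave far fewer calls. Of 14034 genes tested 36 (0.257%) were called, 17 higher (0.121%) and 19 lower (0.135%), and 1607 had an unadjusted p under 0.05. The count depended on single libraries. It was 1 without IMQ+SHP099 replicate 1 and without IMQ+SHP099 replicate 2, in both cases Cxcl5, it was 1 without Sham replicate 2, in this case Krt77, and it was 230 without Sham replicate 1. Without either IMQ+SHP099 library or without Sham replicate 2, 17 of the 18 genes named below lost their call, with adjusted p up to 0.322, and without Sham replicate 1 4 did (up to 0.0633). DESeq2 called 476 genes, among them all 36. For IMQ against Sham 97 genes were called in fibroblasts, and for IMQ+SHP099 against IMQ 0 by edgeR, with 116 at an unadjusted p under 0.05.

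In fibroblasts 4 of 9 antimicrobial genes, 2 of 13 acute-phase and complement genes and 1 of 6 neutrophil chemokines were called higher, beside 0.121% of all genes, and 0 of each were called lower. Of these 4 antimicrobial genes 3 had more RNA in another class. Lcn2 rose from 0.175 and 0.7096 CPM to 2248 and 733 CPM (log2 fold change 11.32 ± 1.07 SE, adjusted p = 0.0287), with 2817 and 1024 CPM in IMQ. Saa3 rose from 13.9 and 8.71 CPM to 23165 and 8115 CPM (10.46 ± 1.02, adjusted p = 0.0287), with 23214 and 8690 CPM in IMQ. Cxcl5 (ENSMUSG00000029371, chromosome 5, 90759360 to 90761624 on the plus strand), a ligand of the neutrophil receptor Cxcr2, rose from 0.175 and 0.0819 CPM to 131 and 67.97 CPM (9.93 ± 0.59, adjusted p = 0.00538), with 86.8 and 74.2 CPM in IMQ. For these 3 genes replicate 1 stood above replicate 2 in IMQ+SHP099 and in IMQ, and the IMQ+SHP099 libraries lay within or next to the range of IMQ. Saa1 rose from 0.526 and 0.3002 CPM to 97.8 and 53.7 CPM (7.76 ± 0.77, adjusted p = 0.0287), and Serpina3m, an acute-phase serpin, from 1.403 and 1.04 CPM to 60.2 and 29.5 CPM (5.29 ± 0.69, adjusted p = 0.0476). Tnc (ENSMUSG00000028364, chromosome 4, 63959785 to 64047015 on the minus strand), which encodes tenascin-C, a matrix protein of wounds, rose from 27.9 and 20.5 CPM to 1425 and 699 CPM (5.46 ± 0.53, adjusted p = 0.0287). Il33, an alarmin of the IL-1 family, rose from 13.2 and 17.7 CPM to 214 and 120.5 CPM (3.42 ± 0.40, adjusted p = 0.039). S100a8 (7.65 ± 0.95, adjusted p = 0.0455) and S100a9 (8.46 ± 1.01, adjusted p = 0.039) were called too, at 0.534% and 0.587% of their keratinocyte levels.

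The genes called lower in fibroblasts included Igfbp2 and Ptn. Igfbp2 (ENSMUSG00000039323, chromosome 1, 72824503 to 72852474 on the plus strand), a binding protein of insulin-like growth factors, fell from 338 and 242 CPM to 14.2 and 5.93 CPM (-4.87 ± 0.60, adjusted p = 0.0438), with 2.33 and 5.84 CPM in IMQ. Ptn, which encodes the growth factor pleiotrophin, fell from 34.02 and 32.5 CPM to 1.99 and 1.496 CPM (-4.28 ± 0.30, adjusted p = 0.00968), with 0.794 and 0.636 CPM in IMQ. Both IMQ+SHP099 libraries stood above both IMQ libraries in these 2 genes (log2 differences 1.24 and 1.28, adjusted p = 1 and 1), but far below Sham. Ntng1, a guidance molecule, fell from 19.8 and 20.3 CPM to 3.99 and 2.24 CPM (-2.72 ± 0.35, adjusted p = 0.0476). Aff3 fell from 105 and 153 CPM to 26.5 and 36.1 CPM (-2.04 ± 0.28, adjusted p = 0.0498), and Cldn10, which encodes a claudin, from 60.9 and 49.3 CPM to 11.6 and 14.96 CPM (-2.04 ± 0.26, adjusted p = 0.0476). Cbr2 fell from 19.3 and 17.4 CPM to 2.58 and 2.65 CPM (-2.81 ± 0.34, adjusted p = 0.039). Krt77, Gpm6a and H2-Ab1 were called lower with more RNA in another class, at 1.11%, 16.6% and 0.193% of its level. The keratinocyte markers in fibroblasts summed to 1644 and 284 raw CPM in Sham and 365 and 85.2 in IMQ+SHP099, and their part in the fall of Krt77 was not tested.

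The counts for lists of matrix genes in fibroblasts stand beside 0.257% of all genes called in this class. Of 20 fibroblast matrix genes Tnc alone was called. Of 16 tested collagen chains 0 were called by edgeR, which beside that share is no result about collagens. The gate collagens Col1a1 (-1.26 ± 0.41, adjusted p = 0.284), Col1a2 (-1.27 ± 0.40, adjusted p = 0.263) and Col3a1 (-0.50 ± 0.40, adjusted p = 0.738) gave no call either. Cells entered the class by the sum of these gate collagens, so that their values are shaped by the gate. In ungated cells the 8 fibroblast markers summed to 1228 and 685 raw CPM in Sham and to 11850 and 10985 in IMQ+SHP099. The effect of fibroblasts left out of the class on its gene values was not tested. All 30 cell cycle genes had a negative log2 fold change in fibroblasts (median -2.21 beside 0.02 over all genes, and -1.62 for IMQ against Sham), while 0 were called by edgeR. The libraries of the 2 groups did not overlap in 14 of these 30 genes in fibroblasts, and they overlapped in the rest. In keratinocytes all 30 were positive, as given above, and 24 did not overlap. The difference between the classes was not tested.

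**Figure D3:**
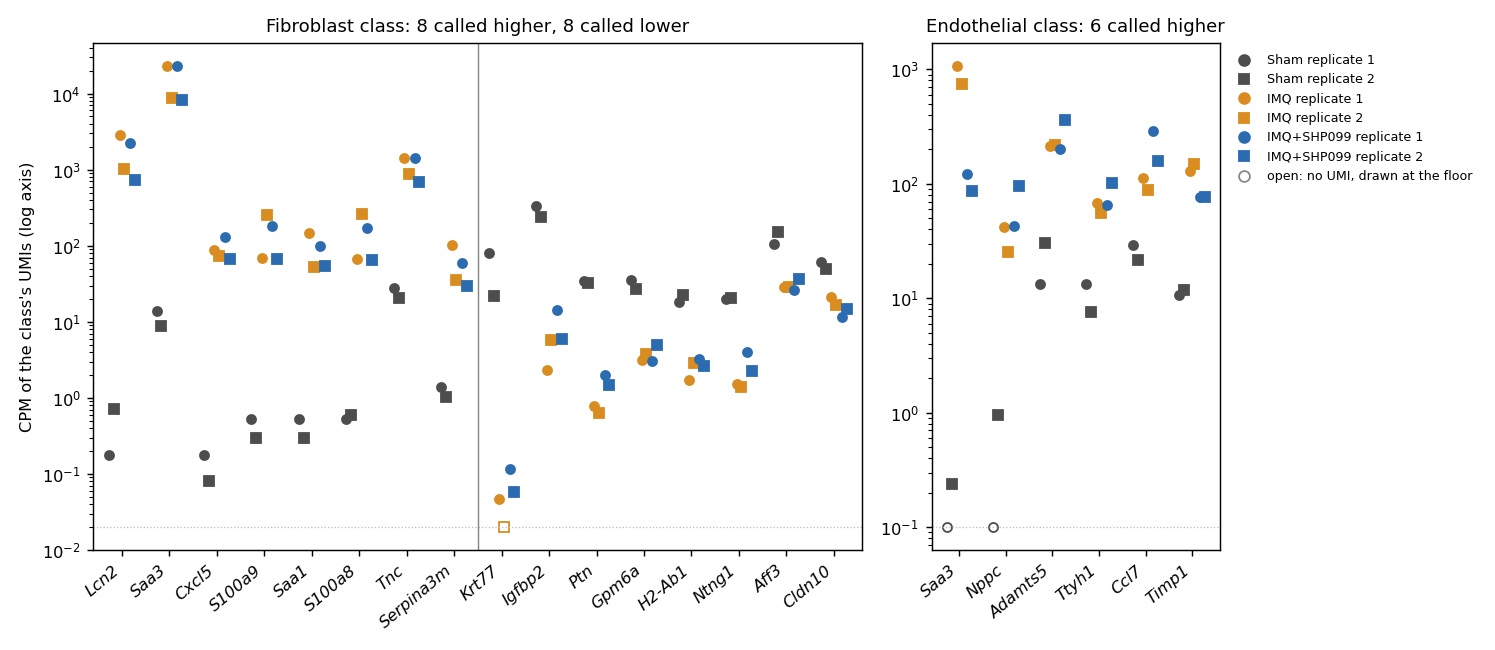
CPM on a log axis of the 16 fibroblast genes with the largest called differences (left panel) and the 6 called endothelial genes (right panel), with 1 point per library in the colours of the plot of keratinocyte genes (circles replicate 1, squares replicate 2). Open symbols mark libraries without a UMI. IMQ+SHP099 and IMQ points lie together for most genes, apart from endothelial Saa3, at 123 and 86.8 CPM in IMQ+SHP099 and 1076 and 748 CPM in IMQ.

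In endothelial cells (89 and 509 cells in Sham, 106 and 156 in IMQ+SHP099) 6 of 10599 genes (0.0566%) were called, all higher, and 1383 had an unadjusted p under 0.05. Nppc (ENSMUSG00000026241, chromosome 1, 86666291 to 86670571 on the minus strand), the gene of C-type natriuretic peptide, a relaxant of vessel walls, rose from 0 and 0.955 CPM to 42.8 and 95.5 CPM (log2 fold change 6.26 ± 0.70 SE, adjusted p = 0.0494). Adamts5, which encodes a protease that cleaves aggrecan and versican, rose from 13.4 and 30.6 CPM to 203 and 362 CPM (3.48 ± 0.42, adjusted p = 0.0494), and Ttyh1 from 13.4 and 7.64 CPM to 65.9 and 101 CPM (3.27 ± 0.39, adjusted p = 0.0494). The groups did not overlap in any of them. Ccl7, a monocyte chemokine, rose from 29.5 and 21.7 CPM to 287 and 158 CPM (3.20 ± 0.39, adjusted p = 0.0494), and Timp1, an inhibitor of metalloproteinases, from 10.7 and 11.7 CPM to 76.6 and 77.2 CPM (2.73 ± 0.29, adjusted p = 0.0494) at 4.82% of the fibroblast level. Saa3 had 1 UMI in Sham (ratio of sums 454, interval 80.3 to 18041, adjusted p = 0.00606) and stood at 0.6704% of the fibroblast level. No gene was called lower. Those with the smallest p in that direction were Tnfsf10, which encodes the ligand TRAIL, at 80.4 and 93.1 CPM in Sham and 17.8 and 23.1 CPM in IMQ+SHP099 (-2.07 ± 0.28, adjusted p = 0.0706), Cyp4b1 (-2.86 ± 0.44, adjusted p = 0.0834), and Hbegf, an EGF receptor ligand, at 129 and 167 CPM and 49.9 and 51.1 CPM (-1.57 ± 0.26, adjusted p = 0.104) with 125 and 126 CPM in IMQ. These 6 calls were all lost without either IMQ+SHP099 library. Those of Nppc, Ttyh1, Ccl7 and Timp1 were also lost without Sham replicate 2. Sham replicate 1 held 391913 UMIs in this class. Myeloid markers in this class stood higher in IMQ+SHP099. The 8 myeloid markers summed to 10.2 and 32.1 raw CPM of the endothelial class in Sham, with 6 of the 8 at 0 in replicate 1, and to 473.7 and 166.3 in IMQ+SHP099. The 8 fibroblast markers summed to 260.3 and 751.6, and to 359.1 and 1159, with overlapping groups. The part of RNA from other cells in the 6 calls was not tested.

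Mural cells, T cells and myeloid cells gave 0 calls in edgeR (0% of 12050, 10216 and 11448 genes), while 1564, 886 and 872 genes had an unadjusted p under 0.05 and DESeq2 called 146, 69 and 142. In T cells the type 17 cytokines stood far apart but with wide spread. Il17a was at 12.8 and 94.04 CPM in Sham and at 393 and 2099 CPM in IMQ+SHP099 (log2 fold change 4.53 ± 1.16 SE, adjusted p = 0.371), with 2128 and 704 CPM in IMQ. Il17f was at 4.995 and 53.4 CPM and 461 and 1405 CPM (4.98 ± 1.04, adjusted p = 0.277), with 1621 and 988 CPM in IMQ. Il22 was at 1.11 and 39.4 CPM and 596 and 1471 CPM (5.64 ± 1.21, adjusted p = 0.29), with 1981 and 1251 CPM in IMQ. In each of the 3 genes both IMQ+SHP099 libraries lay above both Sham libraries, and replicate 1 lay below both IMQ libraries. Trdc, the constant gene of the gamma-delta receptor, was at 3961 and 1260 raw CPM in the Sham T class and at 1742 and 954 in IMQ+SHP099, and Cd3e, a gate gene of the class, at 1845 and 838.5, and at 1053 and 585. The genes with the smallest p were Ctsk, Ifitm1 and Cxcl12, all with more RNA in fibroblasts and with an adjusted p of 0.0565.

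**Figure D4:**
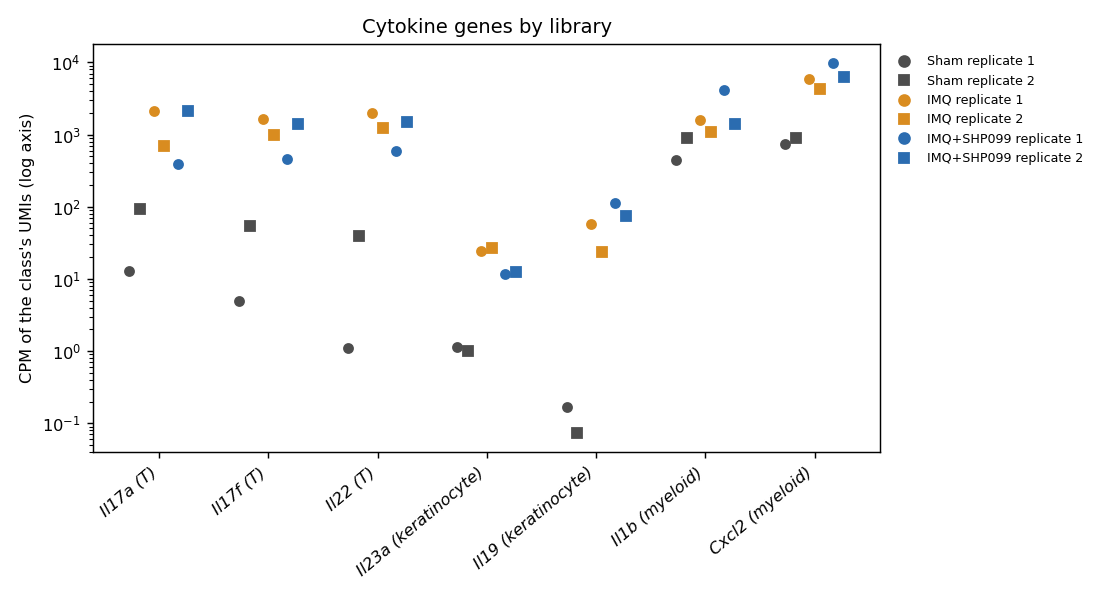
CPM of cytokine and chemokine genes within the class named in brackets, on a log axis, with 1 point per library (circles replicate 1, squares replicate 2; grey Sham, orange IMQ, blue IMQ+SHP099). Il23a in keratinocytes shows the tightest groups, with IMQ+SHP099 between Sham and IMQ. For Il17a, Il17f and Il22 in T cells the IMQ+SHP099 replicates spread over a wider range than for Il23a, and none of these 3 genes was called.

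In myeloid cells (349 and 951 cells in Sham, 188 and 360 in IMQ+SHP099) the genes with the smallest p in the higher direction were Tnc (3.91 ± 0.35, adjusted p = 0.34) and Rarres2 (2.87 ± 0.28, adjusted p = 0.34), both with more RNA in fibroblasts, and Cxcl2, a neutrophil chemokine, at 744 and 894 CPM in Sham and 9966 and 6256 CPM in IMQ+SHP099 (3.31 ± 0.41, adjusted p = 0.453). In the lower direction they were Cd209e, Ece1 and Mgl2, a lectin of dermal dendritic cells and alternatively activated macrophages, which stood at 314 and 848 CPM and 10.3 and 11.01 CPM (-5.76 ± 0.80, adjusted p = 0.453). Il1b was at 451 and 892 CPM in Sham and 4134 and 1399 CPM in IMQ+SHP099 (2.04 ± 0.64, adjusted p = 0.624), and Tlr7, the receptor of imiquimod, at 0.687 and 9.54 CPM and 2.06 and 34.5 CPM (1.72 ± 1.32, adjusted p = 0.762). The groups of Tlr7 overlapped. The myeloid class was not alike across libraries. Lyz2, a gate gene, was at 541 and 4357 raw CPM in Sham and at 1107 and 11235 in IMQ+SHP099, and the Langerhans cell gene Cd207 at 2381 and 249, and 3015 and 246. Replicate 1 of both groups was thus low in Lyz2 and high in Cd207.

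In mural cells (107 and 255 cells in Sham, 143 and 799 in IMQ+SHP099) Saa3 was at 0 UMIs in Sham and at least 303-fold higher in IMQ+SHP099 against a floor of 3 UMIs over the group, at 1.28% of the fibroblast level and not called (adjusted p = 0.138). Rasl10b was at 5.54 and 2.96 CPM and 52.4 and 35.03 CPM (3.56 ± 0.40, adjusted p = 0.157) and Col8a1, a short-chain collagen of vessel walls, at 19.4 and 11.3 CPM and 107 and 177 CPM (3.35 ± 0.38, adjusted p = 0.157). Vcan, which encodes versican, was at 66.4 and 94.2 CPM and 10.8 and 14.2 CPM (-2.65 ± 0.30, adjusted p = 0.157) and lay below both IMQ libraries (31.3 and 38.1 CPM). Ifit1 (-2.32 ± 0.29, adjusted p = 0.157) and Hlf (-3.49 ± 0.45, adjusted p = 0.157) were the next in that direction. S100a8 stood at 5294 and 238 CPM in IMQ+SHP099 mural cells, and in replicate 1, the library at 5294 CPM, the keratinocyte markers summed to 7464 raw CPM of this class against 282 in replicate 2.

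The shares of the 6 classes among all kept cells overlapped between the groups. Keratinocytes made up 61.6% and 14.9% of Sham and 61.4% and 5.12% of IMQ+SHP099 libraries, a difference of means of -5.01 points beside SDs of 33.0 and 39.8 points (n = 2 each, exact two-sided permutation p = 0.667). Fibroblasts made up 11.4% and 36.6%, and 14.3% and 33.0% (difference -0.29 points, exact permutation p = 1). The replicates of a group thus differed far more than the groups. The fibroblast shares moved with the gate cuts. With halved cuts they were 12.5% and 38.9% in Sham and 19.5% and 47.9% in IMQ+SHP099. With doubled cuts they were 8.88% and 32.3% in Sham and 6.17% and 15.3% in IMQ+SHP099. Mural cells made up 1.25% and 3.1% of Sham and 1.65% and 10.8% of IMQ+SHP099, endothelial cells 1.04% and 6.18% against 1.22% and 2.11%, and T cells 5.64% and 4.41% against 4.96% and 5.46%. Myeloid cells made up 4.07% and 11.6% of Sham and 2.16% and 4.88% of IMQ+SHP099 (difference -4.29 points, exact permutation p = 0.667), and the groups overlapped. Of the cells that are not keratinocytes, myeloid cells made up 10.6% and 13.6% of Sham and 5.60% and 5.14% of IMQ+SHP099, and mural cells 3.25% and 3.64% against 4.26% and 11.4%, so that with this denominator the groups of both classes did not overlap. With 2 libraries against 2 the smallest p that this test can give is 0.333. Cells that passed no gate made up 12.4% to 37.9% of these 4 libraries. In these ungated cells the 8 fibroblast markers summed to 1228 and 685 raw CPM in Sham and to 11850 and 10985 in IMQ+SHP099. The part of fibroblasts left out of their class in the shares was not tested. Cells that passed a gate but whose score for another class reached at least 50% of it were set aside as mixed, and made up 2.62% and 1.87% of Sham and 0.932% and 0.732% of IMQ+SHP099, without overlap (exact permutation p = 0.333, the smallest possible).

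**Figure D5:**
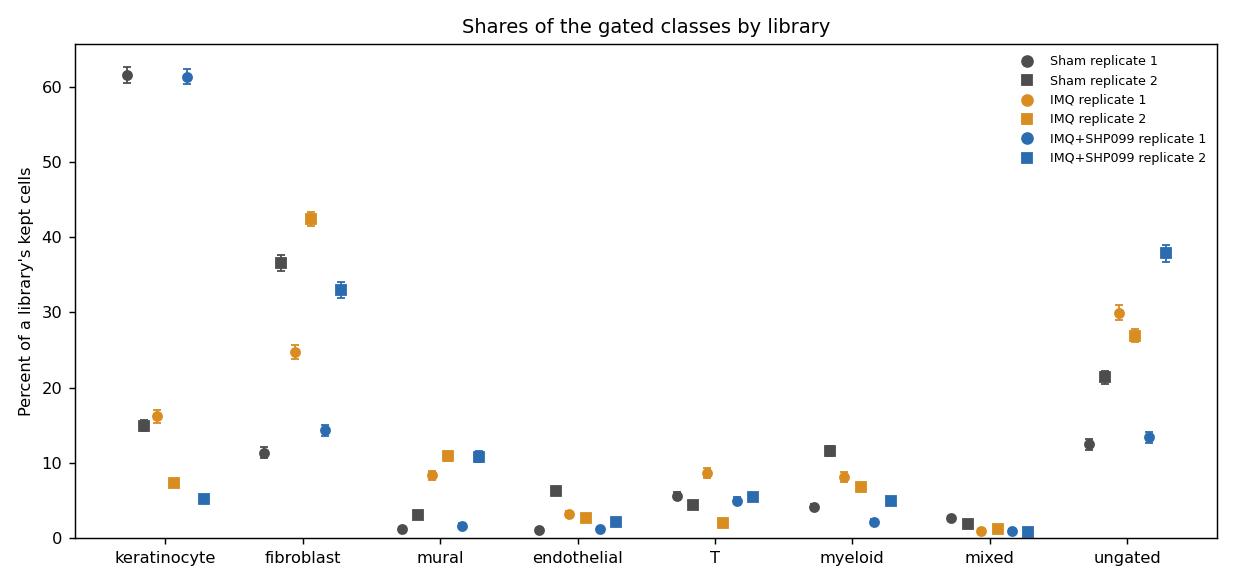
Share of each gated class, of mixed cells and of ungated cells among the kept cells of a library, in percent, with 1 point per library (circles replicate 1, squares replicate 2; grey Sham, orange IMQ, blue IMQ+SHP099) and bars for 95% exact binomial intervals (Clopper-Pearson) that hold the counting error alone. Replicate 1 of Sham and of IMQ+SHP099 stand together at 61.6% and 61.4% keratinocytes, far from their own replicates 2.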

How the data were processed

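Single-cell RNA of 6 libraries of mouse dorsal skin (2 each of Sham, IMQ and IMQ+SHP099) was analysed from UMI counts per gene and barcode, which the authors deposited as made by Cell Ranger 3.1.0 on GRCm38 and did not normalise. The limits of the study were applied to barcodes: fewer than 100000 UMIs, fewer than 6500 genes and a mitochondrial share below 10%. No doublet caller was run. The sources do not say that doublets were removed before deposit.

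Cells were assigned to classes by gate genes, with at least 2 gate UMIs and a gate share per 10000 UMIs of at least 75 for keratinocytes and fibroblasts, 25 for mural, 2 for endothelial, 3 for T and 30 for myeloid cells. A cell whose share, relative to the cut, reached 50% of its highest for another class was set aside as mixed. UMIs were summed per library and class and fitted with edgeR 4.0.16 (R 4.3.3, quasi-likelihood test, TMM, filterByExpr, all 6 libraries, group as the only term), with Benjamini-Hochberg adjustment over all genes of the class. SE is the log2 fold change over the square root of F. Shares used an exact two-sided permutation test (scipy 1.17.1). The fitting script was tested on simulated data. DESeq2 1.42.0 and 11 other alternatives, 12 in all, were run. The classes, gene lists and alternatives were chosen with earlier results of these data known.

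Depth ranged from 391913 UMIs (endothelial cells of Sham replicate 1) to 146917655 UMIs (keratinocytes of IMQ+SHP099 replicate 1) per class sum, so that low genes are least precise in endothelial, T and mural cells. Genes were named by a rule. In keratinocytes and fibroblasts these were the 8 called genes of each direction with the largest fold change (5 in the other classes), with a mean of at least 20 CPM in the higher group and no overlap, or, with fewer than 3, the 3 with the smallest p. To these were added up to 3 called members of each list with the largest fold change, and Ptpn11, Tlr7, Il17a, Il17f, Il22, Il23a, Il1b, S100a8, S100a9, Dusp6 and Spry4. Slpi, Krt17, Lor, Krt15, Il1rn, Klk5, Spred2, the gate genes, Cd14, Retnlg, Trdc and Cd207 were named after their values were seen. A gene under 20% of its highest class level is given as having more RNA in another class. With 0 UMIs in a group the fold is a bound at 3 UMIs over the group, and with 1 to 3 UMIs a ratio of sums with its 95% counting interval. Intervals and bounds cover counting error only. Promoters and genes were placed on GRCm38.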

Additional observations from a re-analysis of the deposited data

Results flagged for a closer look

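Only the 139 calls of named genes were searched for an opposite difference in another class. Calls under 20% of the gene's highest class level or under 20 CPM in the higher group were passed over. For 9 genes the same contrast (IMQ+SHP099 against Sham) in another class had a log2 fold change of the opposite sign, with no overlap of the libraries in either class. The opposite difference had to be at least 2-fold, with at least 20 CPM in the higher group. Called genes that were not named were not searched. These differences between classes were not tested. Wfdc21 fell in keratinocytes (-7.97), while in myeloid cells its log2 fold change was 11.12, from 0.687 and 0 CPM in Sham to 36.0 and 999.1 CPM in IMQ+SHP099, without a call (adjusted p = 0.534). Igfbp2 fell in fibroblasts (-4.87) and was called higher in keratinocytes by 1.899 on the log2 scale, from 10.7 and 6.03 CPM to 41.7 and 20.4 CPM (adjusted p = 0.0115). Cxcl14 fell in keratinocytes (-2.64), with a log2 fold change of 2.427 in fibroblasts, from 103 and 62.4 CPM to 510.4 and 374 CPM (adjusted p = 0.0527). Birc5 rose in keratinocytes (2.03), with -2.244 in fibroblasts, and Cd24a rose in keratinocytes (1.71), with -2.654 in fibroblasts (adjusted p = 0.222 and 0.11 in fibroblasts). In endothelial cells the log2 fold changes were 1.152 for Sema3d (-7.66 in keratinocytes), 1.567 for Col23a1 (-1.45 in keratinocytes) and -1.686 for Cd274, which encodes PD-L1 (2.70 in keratinocytes), all without a call there. The keratinocyte call of Col23a1 was lost without IMQ+SHP099 replicate 1, IMQ+SHP099 replicate 2 or Sham replicate 1 (adjusted p = 0.128, 0.165 and 0.14), and that of Cxcl14 without either IMQ+SHP099 library (adjusted p = 0.0833 and 0.0724). Adamts5 rose in endothelial cells (3.48) and had -1.015 in mural cells.

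The cells that passed no gate were used in no comparison. In them Retnlg, a neutrophil gene, stood at 8.767 and 351 raw CPM in the 2 IMQ+SHP099 libraries, above 0.682 and 0.832 in Sham. The IMQ libraries stood at 795 and 1042.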

How the results depend on the processing

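No named gene changed direction in a comparison with a call under the main setting, the alternative (of 12) or both. Where neither setting gave a call, the direction was not compared. Over all named genes and alternatives 2032 comparisons kept their side of the threshold, 205 lost a call and 109 gained one. In keratinocytes the 2924 calls became 1152 to 2783 with 1 library left out, 1152 being without IMQ+SHP099 replicate 1, and 2293 to 4052 otherwise, 2293 being without the IMQ libraries. In fibroblasts (36) there were 476 calls with DESeq2, 83 with doubled gate cuts, 1083 without a filter on low counts, 60 without the IMQ libraries and 1 to 230 with 1 library left out. In endothelial cells (6) these were 90, 1, 708, 11 and 0 to 618, with 1 for halved cuts and 21 for thinned sums. In T cells (0 with edgeR, 886 at an unadjusted p under 0.05) they were 69 with DESeq2, 5 with doubled cuts, 519 without a filter and 0 to 11 with 1 library left out. In mural cells (0 with edgeR, 1564 unadjusted) they were 146 with DESeq2, 796 without a filter, 2 for thinned sums, 1 without the IMQ libraries and 0 to 28 with 1 library left out. In myeloid cells (0 with edgeR, 872 unadjusted) they were 142 with DESeq2 and 50 without a filter. The cause of these differences was not tested. Where 1 library was left out, the lone library of its group was assumed to vary like the others. With the replicate block the counts were 3846 in keratinocytes, 172 in fibroblasts, 40 in endothelial, 69 in T, 0 in mural (edgeR) and 3 in myeloid cells (S100a9, S100a8 and Lcn2). Other settings lowered the count of 36 in fibroblasts, to 24 with halved gate cuts, 24 with RLE in place of TMM scaling and 33 for thinned sums. Of the 18 called genes named in fibroblasts 6, 4 and 3 lost their call, in the same order. Same-numbered Sham and IMQ+SHP099 libraries deviated together with correlations of 0.054 (mural) to 0.516 (myeloid), over 2 pairs of pooled mice. Their titles pair them by number alone. Replicates 1 were also alike in their keratinocyte share, 61.6% in Sham and 61.4% in IMQ+SHP099. The difference in the T cell share, 0.186 points of all kept cells, was -0.6319 points of the cells that are not keratinocytes, of which the myeloid and mural shares no longer overlapped between the groups. With 2 libraries a group, class sums held as few as 391913 UMIs.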
